A study of Mus musculus with 2 samples.

Results

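The genes examined here encode RNA polymerase II and the general transcription factors that place it on promoters. They were chosen by symbol alone, as every gene whose name begins with Polr2, Gtf2a, Gtf2b, Gtf2e, Gtf2f or Gtf2h, every gene named Taf followed by a number with or without a letter, and Tbp. This rule took 49 of the 22882 gene symbols, and each of the 49 stood on 1 row. They comprise 13 polymerase subunits, 13 subunits of TFIIA, TFIIB, TFIIE, TFIIF and TFIIH, and 14 subunits of TFIID. A further 9 genes have a TAF name but are not canonical TFIID subunits. Polr2m, whose product is a protein associated with the polymerase, is counted among the 13 polymerase subunits throughout.

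RNA polymerase II transcribes all protein-coding genes. It cannot find a promoter alone, and a preinitiation complex forms around it: TFIID, made of the TATA-binding protein and its associated factors (TAFs), binds the core promoter, TFIIA and TFIIB join, TFIIF brings the polymerase, and TFIIE and TFIIH open the DNA and start the enzyme. Mediator, a large complex of which Med1 is a subunit, bridges this machinery and the factors bound at enhancers, nuclear receptors among them.

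Heart RNA was compared between csMed1-/- mice, in which Cre under the α-myosin heavy chain promoter deletes the floxed Med1 exons in cardiomyocytes from late gestation on, and Med1fl/fl mice, which carry the same floxed allele without the deletion and served as control. All were untreated C57BL6/J mice of 23 days and of mixed gender. RNA of 5 hearts was pooled for each genotype, and 1 library was made of polyadenylated RNA from each pool. There were therefore no replicates, no error could be set on any difference between the genotypes, and no test was made. Cre acts in cardiomyocytes alone, whereas the RNA came from whole heart, so that other heart cells kept their Med1.

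Values are FPKM, fragments per kilobase of transcript scaled to library size in a way that is not given in the sources used here. FPKM allow for gene length, and levels of different genes are set side by side as listed. Other effects of a gene's sequence on its FPKM were not tested. Among 40 members, longer transcripts tended to lower levels (Spearman rho -0.35 in control). The 2 libraries summed to 780366 FPKM in control and 716365 FPKM in csMed1-/-. A gene was kept if neither library listed it at 0 and the higher of its values reached 1 FPKM, as was so for 10489 genes and for 40 of the 49 members. The ratio of csMed1-/- to control FPKM was counted as past the size threshold beyond 2-fold. Med1 itself had 3.38 FPKM in control and 0.412 in csMed1-/-, 0.122 times the control level, as its labels call for. Among all genes kept, 18% were more than 2-fold lower in csMed1-/- and 13.6% more than 2-fold higher, 31.5% in either direction, and the median log2 ratio was -0.07.

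Most of the machinery differed by less than 2-fold between the libraries. Of the 40 members kept, 34 lay within 2-fold (85.0%), 2 were lower (5.0%, against 18% of all genes kept) and 4 were higher (10%, against 13.6%). The 4 higher genes were Polr2a, Taf13, Polr2l and Gtf2b, and the 2 lower genes were Taf1a and Polr2m. The median log2 ratio of the 40 members was 0.16, with quartiles of -0.36 and 0.47, whereas the quartiles over all genes kept were -0.72 and 0.55. A ratio above 0 on the log2 scale was found for 23 of the 40 members (57.5%) and for 46.8% of all genes kept. Summed over the 49 members, FPKM was 1249 in control and 1571 in csMed1-/-, a ratio of 1.26, and 1.16 without Polr2a.

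The median level of the 49 members was 6.55 FPKM in control and 6.57 in csMed1-/-. In both libraries 21 members stood at 10 FPKM or more. At 100 FPKM or more there were 3 members in control, Polr2f, Polr2e and Taf10, and 7 in csMed1-/-, where Polr2l, Polr2a, Polr2j and Polr2c joined them. The levels thus spanned several orders of magnitude, with Polr2f, Polr2e and Taf10 highest in control and Taf7, Taf4b and Taf1d among the lowest that were above 0.

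**Figure D1:**
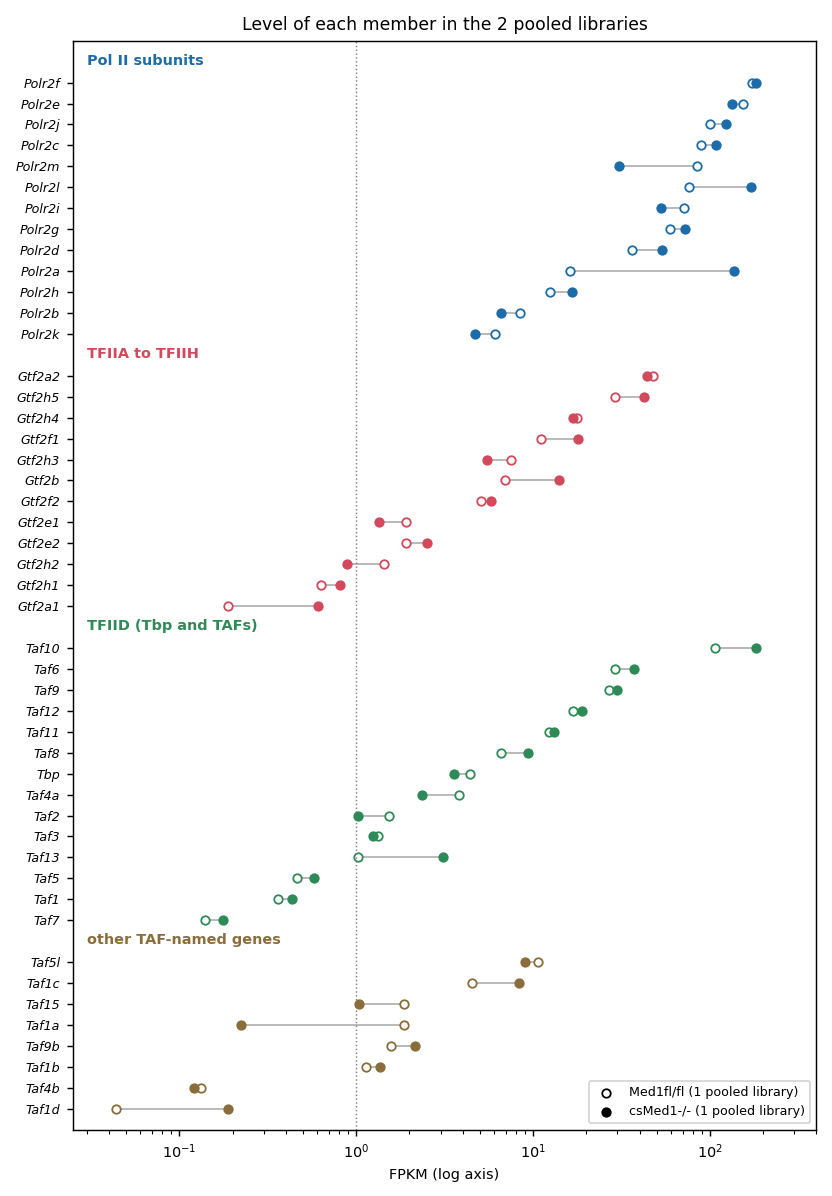
FPKM of each member above 0 in both libraries, on a log axis, with open points for the Med1fl/fl pool and filled points for the csMed1-/- pool (1 library each, so there are no error bars) and a dotted line at 1 FPKM. The long lines belong to Polr2a (16.2 and 136 FPKM), Taf1a (1.86 and 0.224), Taf13 (1.03 and 3.11) and Polr2m (84.2 and 30.8), and to Gtf2a1 and Taf1d, which were under 1 FPKM in both libraries.

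The RefSeq promoters of the 6 members past 2-fold are shown because promoters are the sequences on which this machinery would assemble to transcribe its own genes. The 150 bases before the RefSeq transcription start (GRCm38.p6) are given from 5′ to 3′ on the strand of the gene. Capitals mark matches on either strand to the letters TATAAA (the TATA box motif), GGGCGG (the GC box motif), CCAAT (the motif of that name) and CCGGAAG (the core of an ETS factor site), and these matches did not overlap one another.
Polr2a (chr11:69758634-69758783, minus strand): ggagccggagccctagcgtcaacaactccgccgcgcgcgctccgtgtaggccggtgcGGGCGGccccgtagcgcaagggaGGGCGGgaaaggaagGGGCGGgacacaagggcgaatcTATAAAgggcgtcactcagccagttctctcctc
Polr2l (chr7:141475154-141475303, minus strand): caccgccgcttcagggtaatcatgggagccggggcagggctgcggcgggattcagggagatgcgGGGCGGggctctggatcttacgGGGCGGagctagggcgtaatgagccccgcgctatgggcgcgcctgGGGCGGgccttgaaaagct
Taf13 (chr3:108571549-108571698, plus strand): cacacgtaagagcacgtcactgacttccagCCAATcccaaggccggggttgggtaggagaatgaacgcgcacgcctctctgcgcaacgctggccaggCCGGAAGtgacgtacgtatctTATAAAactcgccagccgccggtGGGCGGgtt
Gtf2b (chr3:142765097-142765246, plus strand): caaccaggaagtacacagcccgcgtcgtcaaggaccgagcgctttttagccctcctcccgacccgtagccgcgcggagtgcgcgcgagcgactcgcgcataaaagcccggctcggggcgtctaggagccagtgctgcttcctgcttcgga
Polr2m (chr9:71485984-71486133, minus strand): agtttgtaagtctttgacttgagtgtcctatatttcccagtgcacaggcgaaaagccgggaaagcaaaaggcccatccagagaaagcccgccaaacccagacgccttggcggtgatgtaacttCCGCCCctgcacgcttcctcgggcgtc
Taf1a (chr1:183388735-183388884, plus strand): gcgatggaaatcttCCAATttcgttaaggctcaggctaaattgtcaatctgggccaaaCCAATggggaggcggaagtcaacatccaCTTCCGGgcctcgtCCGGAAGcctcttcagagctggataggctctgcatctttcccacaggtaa
For Polr2m and Taf1a, which have 2 windows in the table, the first is shown. The stretch of Gtf2b lies before the RefSeq start but inside the gene as annotated in GENCODE M21, which starts at base 142765045. Whether it is the promoter used in heart was not tested.

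TATAAA began 33 bases before the start of Polr2a and 32 bases before that of Taf13, the usual place of a TATA box. Of the 42 members with a RefSeq window (250 bases before to 50 after the start), these 2 alone had TATAAA on the strand of the gene beginning 35 to 25 bases before the start (4.76%), against 2.12% of 27025 genes and 1.54% of 8223 genes that were also kept. Polr2a and Taf13 also had the highest log2 ratios of the 40 members, which is a description of 2 genes and was noted after the values were seen. GC boxes stood 93, 70 and 55 bases before the start of Polr2a and 86, 64 and 19 bases before that of Polr2l. No match fell in the stretch shown for Gtf2b, which lies inside the GENCODE gene. Over whole windows and both strands, GGGCGG was found for 31 of the 42 members (73.8%, against 38.2% of all genes and 69.8% of kept genes), CCAAT for 14 (33.3%, against 41.1% and 42.6%) and TATAAA at any position for 9 (21.4%, against 15.7% and 9.17%). CCGGAAG was found for 16 members (38.1%, against 9.93% and 20.0%), Taf13 and Taf1a among them. These are matches of letters and show no binding.

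All 13 polymerase subunits were kept. Of these, 2 were more than 2-fold higher (15.4%, against 13.6% of all genes kept), 1 was lower (7.69%, against 18%) and 10 lay between. A log2 ratio above 0 was found for 8 of the 13 (61.5%, against 46.8%). The median log2 ratio of the 13 was 0.28, and 0.19 without Polr2a. Summed FPKM was 884 in control and 1093 in csMed1-/- (ratio 1.24), and 868 and 957 (ratio 1.10) without Polr2a. The subunits as a group thus differed little, and the largest difference was in a single one.

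Polr2a encodes RPB1, the largest subunit, which holds part of the catalytic centre and the C-terminal repeat domain whose phosphorylation marks the steps of transcription. The gene occupies bases 69733997 to 69758637 of chromosome 11, on its minus strand (GENCODE M21, GRCm38). Its level was 16.2 FPKM in control and 136 in csMed1-/-, 8.40-fold higher (log2 3.07). Its ratio ranked 161 of 10489, with 1.53% of kept genes above it. Among the 2356 genes at 10 to 30 FPKM in control, 6 had a log2 ratio as high, Polr2a included.

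Polr2b encodes RPB2, which forms the active site together with RPB1. It had 8.41 FPKM in control and 6.57 in csMed1-/-, a log2 ratio of -0.36. The level of Polr2a relative to Polr2b was therefore 1.93 in control and 20.7 in csMed1-/-. Polr2a was the tenth highest of the 13 subunits in control, with 1.83% of their summed FPKM, and the third highest in csMed1-/-, with 12.5%.

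The remaining subunits found in RNA polymerase II alone were close between the libraries. Polr2c and Polr2j, which encode the pair RPB3 and RPB11 on which assembly of the enzyme begins, had 88.5 and 99.8 FPKM in control and 109 and 123 in csMed1-/-, with a ratio of Polr2c to Polr2j of 0.887 in control and 0.879 in csMed1-/-. Polr2d and Polr2g, which encode the detachable stalk RPB4 and RPB7, had 36.1 and 59.5 FPKM in control and 53.7 and 72.1 in csMed1-/-. Both pairs kept their order, and none of the 4 genes reached 2-fold. Polr2i, whose product RPB9 serves accuracy of transcription, had 71.6 and 53.1 FPKM (log2 ratio -0.43).

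5 subunits are shared with RNA polymerases I and III, and their median log2 ratio was 0.09. Polr2l, which encodes RPB10, is transcribed from the minus strand of chromosome 7 (141471860 to 141475132), and its level was 76.3 FPKM in control and 170 in csMed1-/-, 2.24-fold higher (log2 1.16). It was the only shared subunit past 2-fold. Polr2f, the highest subunit in both libraries, had 172 and 183 FPKM, and Polr2e had 153 and 133. Polr2h had 12.5 and 16.7 FPKM, and Polr2k, the lowest subunit in both libraries, had 6.08 and 4.67.

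Polr2m encodes Gdown1, which associates with a fraction of RNA polymerase II and makes its transcription dependent on Mediator. The gene is on chromosome 9 (71478437 to 71485935, minus strand). It had 84.2 FPKM in control and 30.8 in csMed1-/-, 2.74-fold lower (log2 -1.45). None of the 7 subunits of RNA polymerase II alone and none of the 5 shared subunits was lower past 2-fold. Myzap, which encodes a protein of the cardiac intercalated disc, lies on the same strand 18411 bases upstream of Polr2m (71504347 to 71592360), and RefSeq lists Gcom1, the name of a joint Myzap and Polr2m transcript unit, as a synonym of Myzap. Myzap had 109 FPKM in control and 21.3 in csMed1-/- over its 2 rows, a log2 ratio of -2.35, so both neighbours were lower. How reads of a transcript that runs through both genes were divided is not given in the sources used here, and the part of such reads in the Polr2m value was not tested.

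Of the 13 genes of TFIIA, TFIIB, TFIIE, TFIIF and TFIIH 10 were kept. Of these 10, 1 was more than 2-fold higher (10%, against 13.6% of all genes kept) and none lower (against 18%). On the log2 scale 5 were above 0 (50%, against 46.8%) and 5 below. The median log2 ratio of the 10 was 0.06. This median depended on the filter: it was 0.19 with 1 FPKM required in both libraries and 0.27 with no filter. Gtf2b encodes TFIIB, the single protein that bridges TBP and the polymerase and sets the start site. Its gene is on the plus strand of chromosome 3 (142765045 to 142783606), with 6.97 FPKM in control and 14.1 in csMed1-/-, 2.02-fold higher (log2 1.02). Of the members past 2-fold it was the nearest to the threshold, and with a pseudocount of 1 FPKM it fell short of it (log2 0.92).

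TFIIA steadies TBP on DNA. Its small subunit gene Gtf2a2 was the highest of the 13, with 47.4 and 44.0 FPKM, whereas Gtf2a1, for the large subunit, had 0.189 and 0.610 FPKM and was not kept. The germ cell paralogue Gtf2a1l was listed at 0 in both libraries. The subunits of 1 complex were thus listed at very different FPKM in either library.

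TFIIF, which escorts the polymerase to the promoter, had both genes above 0 on the log2 scale. Gtf2f1 had 11.2 FPKM in control and 17.9 in csMed1-/- (log2 ratio 0.68), and Gtf2f2 had 5.06 and 5.78. TFIIE, which recruits TFIIH, had 1 gene in each direction, with 1.92 and 1.35 FPKM for Gtf2e1 and 1.91 and 2.52 for Gtf2e2. None of these 4 genes was past 2-fold.

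TFIIH opens the promoter and also repairs DNA. Of its 5 core genes with a Gtf2h name 4 were kept, with a median log2 ratio of -0.26. Gtf2h5, for the smallest subunit, was the highest, with 28.9 FPKM in control and 42.2 in csMed1-/- (log2 ratio 0.55), and Gtf2h4 had 17.7 and 16.8. Gtf2h3 had 7.47 and 5.51 FPKM, Gtf2h2 had 1.44 and 0.883, the lowest log2 ratio of the 4 (-0.71), and Gtf2h1 had 0.636 and 0.805 and was not kept. The other TFIIH genes, which the rule does not take, spread further. The kinase module cyclin Ccnh had 3.35 FPKM in control and 1.09 in csMed1-/- (log2 -1.61), while the helicase genes Ercc2 (log2 0.89) and Ercc3 (0.33) and the assembly factor Mnat1 (0.76) lay within 2-fold, and Cdk7, the kinase, was under 1 FPKM in both libraries.

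**Figure D2:**
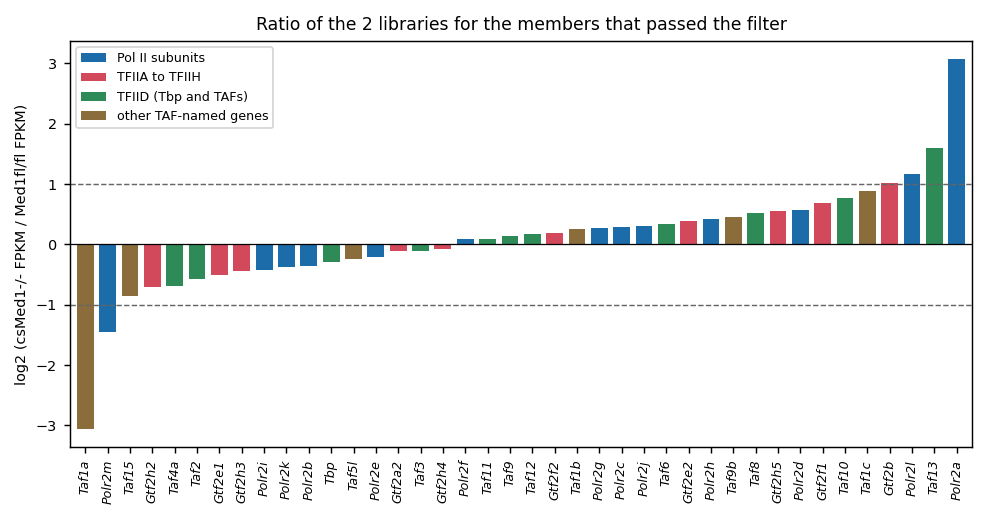
Log2 ratio of csMed1-/- to Med1fl/fl FPKM for the 40 members kept, in order and coloured by complex, with dashed lines at 2-fold; each bar is 1 library over 1 library, without error. Taf1a (-3.06) and Polr2m (-1.45) lie below the lower line, Gtf2b (1.02), Polr2l (1.16), Taf13 (1.60) and Polr2a (3.07) lie above the upper line, and the other 34 lie between.

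TFIID recognises core promoters. Of its 14 genes 11 were kept, with a median log2 ratio of 0.15. Of these 11, 1 was more than 2-fold higher (9.09%, against 13.6% of all genes kept) and none lower (against 18%). Tbp, which encodes the TATA-binding protein, had 4.41 FPKM in control and 3.59 in csMed1-/- (log2 ratio -0.30). The TAF subunits differed 765-fold between the highest and the lowest in control and 1038-fold in csMed1-/-. Taf10 was the highest in both libraries and Taf7 the lowest. Summed over the 14 genes, FPKM was 212 and 304 (ratio 1.43), and 105 and 121 (ratio 1.15) without Taf10.

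Many TAFs pair through histone folds. In the pair Taf11 and Taf13, Taf11 had 12.2 FPKM in control and 13.1 in csMed1-/-. Taf13, on the plus strand of chromosome 3 (108571698 to 108583222), had 1.03 and 3.11 FPKM, 3.02-fold higher (log2 1.60). The 2 partners therefore lay closer together in csMed1-/- than in control, at levels near the filter for Taf13.

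Taf10, whose product pairs with those of Taf3 and Taf8 and is shared with the coactivator complex SAGA, had 107 FPKM in control and 183 in csMed1-/- (log2 ratio 0.77). Ilk, an integrin-linked kinase gene, overlaps it on the opposite strand and had 109 and 350 FPKM (log2 1.68). Although the libraries kept the strand, its use in counting is not given in the sources used here, and the part of Ilk reads in the Taf10 value was not tested. Taf8 had 6.55 and 9.42 FPKM (0.52) and Taf3 had 1.33 and 1.24 (-0.10).

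In the pair Taf6 and Taf9, Taf6 had 29.3 and 37.0 FPKM and Taf9 had 26.8 and 29.7. Ak6 overlaps Taf9 on the same strand and has no value under that symbol, and the part of Ak6 reads in the Taf9 value was not tested. In the pair Taf4a and Taf12, Taf4a had 3.82 and 2.37 FPKM (log2 ratio -0.69, the lowest in TFIID) and Taf12 had 16.8 and 18.9. Taf2, which contacts DNA around the start site, had 1.53 and 1.02 FPKM. The scarcest TFIID genes were Taf1 at 0.360 and 0.433 FPKM, Taf5 at 0.462 and 0.575 and Taf7 at 0.140 and 0.176, and these 3 were not kept.

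9 members bear a TAF name but are not canonical TFIID subunits. Of the paralogues of TFIID subunits, Taf9b had 1.58 and 2.15 FPKM, against 26.8 and 29.7 for Taf9. Taf4b had 0.133 and 0.122 FPKM, against 3.82 and 2.37 for Taf4a, and Taf7l was listed at 0 in both libraries. In each pair the paralogue stood below the common form in both libraries, or at 0. Taf5l, the SAGA counterpart of Taf5, had 10.6 and 8.95 FPKM and thus a higher level than Taf5 itself. Taf15, an RNA-binding protein of the FET family found in part of TFIID, had 1.87 and 1.03 FPKM, 1.82-fold lower (log2 -0.86), the lower gene nearest to the threshold from within.

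Taf1a, Taf1b, Taf1c and Taf1d encode subunits of SL1, the TBP complex that brings RNA polymerase I to ribosomal RNA genes. Taf1a (chromosome 1, 183388981 to 183410198, plus strand) was at 1.86 FPKM in control and 0.224 in csMed1-/-, 8.32-fold lower (log2 -3.06), the lowest ratio of the members. Taf1c had 4.49 and 8.30 FPKM (log2 0.89), the higher gene nearest to the threshold from within. Taf1b had 1.14 and 1.36 FPKM, and Taf1d had 0.0437 and 0.188 and was not kept. The SL1 subunits therefore lay on both sides, and the ratio of Taf1a rests on values of less than 2 FPKM in both libraries.

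**Figure D3:**
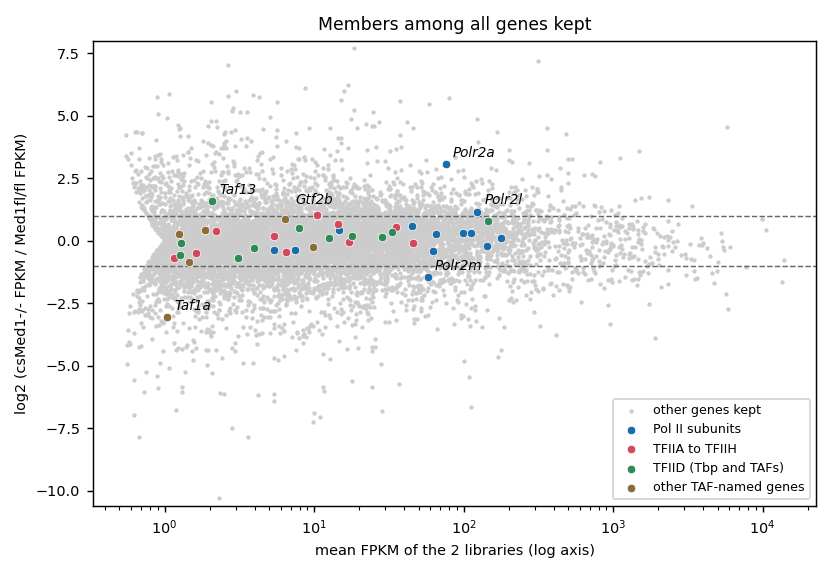
Log2 ratio against the mean FPKM of the 2 libraries (log axis) for the 10489 genes kept (grey) and the 40 members (coloured by complex), with dashed lines at 2-fold. Polr2a (log2 3.07) lies above most genes of its level, while Taf1a (-3.06) and Taf13 (1.60) lie among low genes, where the cloud is wide.

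Related genes outside the rule were listed in 8 groups with 77 genes, of which 63 were kept. Of these 63, 7 were more than 2-fold lower and 4 higher, smaller shares than the 18% and 13.6% of all genes kept. Polymerase I subunits had a median log2 ratio of -0.54 over 5 genes kept, with 2 lower (40%, against 18%). Of the 2, Polr1a, for the largest subunit, had 11.2 and 4.31 FPKM (-1.38), and Polr1e had 11.4 and 4.93 (-1.20). Polymerase III subunits had a median of -0.15, with 7 of 8 genes below 0 and 1 above (12.5%, against 46.8% of all genes kept). Of these 8, only Polr3b was more than 2-fold lower (12.5%, against 18%), with 2.15 and 1.04 FPKM (-1.05). The counterparts of Polr2a in the other polymerases were thus lower or near even, Polr1a as above and Polr3a with 3.98 and 3.52 FPKM.

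Elongation factors act after initiation. Of 26 listed 22 were kept, with a median log2 ratio of 0.07. Of these 22, 1 was lower (4.55%, against 18% of all genes kept) and 3 were higher (13.6%, against 13.6%). Tcea3, the TFIIS form of heart and skeletal muscle, had 83.3 FPKM in control and 9.37 in csMed1-/-, 8.89-fold lower (log2 -3.15), whereas Tcea1 (1.83 and 1.66 FPKM) and Tcea2 (4.46 and 4.37) were even. Ell2 had 0.921 and 3.62 FPKM (log2 1.97) and Aff4 had 0.457 and 1.16 (1.35), both parts of the super elongation complex, and Rdbp, for a subunit of the pausing factor NELF, had 12.8 and 26.3 (1.04).

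Among the 11 genes for polymerase assembly and for phosphatases of the C-terminal domain, the median was 0.48. Of these 11, 1 was higher (9.09%, against 13.6% of all genes kept) and 1 lower (9.09%, against 18%). Gpn2, a GTPase needed for assembly, had 9.57 and 28.8 FPKM (log2 1.59), and Rpap3, a cochaperone of assembly, had 2.20 and 1.09 (-1.02). Among SAGA subunits outside the rule, Kat2a, its acetyltransferase, had 13.6 and 6.23 FPKM (-1.12), and the median was -0.41 over 9 genes kept. Of the TBP relatives and regulators none was past 2-fold, and Drap1, a subunit of the repressor NC2, had 342 and 511 FPKM.

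**Figure D4:**
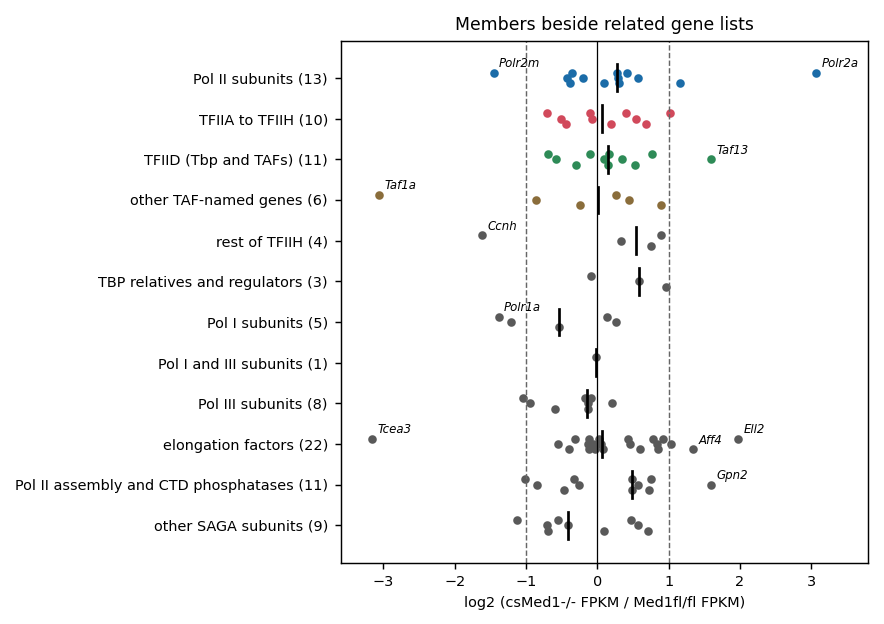
Log2 ratio of csMed1-/- to Med1fl/fl FPKM for each gene kept, by group, with members in colour, related genes in grey, the median of each group as a black bar, the number of genes kept in parentheses and dashed lines at 2-fold; vertical offsets within a group only separate points. The polymerase I group has its median at -0.54 and the polymerase II subunits at 0.28, and Polr2a (3.07) and Tcea3 (-3.15) are the extremes.

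Base composition moved with the ratios. For each gene the longest protein-coding transcript was taken, matched by symbol or else by a synonym. Over 9961 kept genes so matched, the log2 ratio correlated with transcript GC content with a Spearman rho of 0.21 (Pearson r 0.16). Over the 40 members the rho was 0.14 (r 0.12). The genes of such a correlation all come from 1 pair of libraries and do not stand in for replicates. With genes split into 3 equal classes of GC content, the median log2 ratio of all genes was -0.30, -0.15 and 0.24 from low to high, and that of members was 0.17, 0.13 and 0.19 over 18, 12 and 10 genes. Centring on the median of 10 bins of GC content, chosen after seeing the data, gave a median for polymerase II subunits of 0.064 in place of 0.28. The other medians were higher under it, at 0.27 in place of 0.16 for all members, 0.30 in place of 0.15 for TFIID and 0.35 in place of 0.06 for the genes of TFIIA to TFIIH. Centring on the median of all genes kept, without bins, already gave 0.23, 0.22 and 0.13 for these groups in that order. For polymerase II subunits it gave 0.35. The part of base composition was not otherwise tested.

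Markers of the cell types of the heart also differed between the pools. Of 6 cardiomyocyte markers kept out of 8, 3 were more than 2-fold lower (50%, against 18% of all genes kept) and none higher (against 13.6%). The summed level of these 6 was 38971 FPKM in control and 16948 in csMed1-/- (ratio 0.435). Of the other 2, Actc1 was listed at 0 in control and 9189 FPKM in csMed1-/-, and Myh6, on a row joined with Myh7, at 0 in control and 647 in csMed1-/-, so that an exact 0 in these files can be a failed estimate. With both included, the csMed1-/- sum was 26783 FPKM (ratio 0.687). Because both add nothing to the control sum, this ratio does not measure the 8 markers. Of 8 fibroblast markers 4 were higher (50%) and 1 lower (12.5%), summed at 503 and 1193 FPKM. Of 4 smooth muscle markers 2 were higher (50%) and 1 lower (25%), summed at 604 and 1024 FPKM. The smooth muscle sum rests on Cnn1 (4.32 and 622 FPKM), and without it the other 3 markers summed to 600.1 FPKM in control and 401.5 in csMed1-/-. Of 6 endothelial markers 1 was higher (16.7%) and 2 lower (33.3%), summed at 378 and 300 FPKM. Of 4 macrophage markers kept out of 5, 1 was higher (25%), summed at 47.9 and 62.2 FPKM. Of 4 erythroid markers 2 were higher (50%), summed at 15942 and 24887 FPKM. Over all genes kept, 13.6% were higher and 18% lower. Fewer cells of a type and less RNA per cell cannot be told apart in such samples, and the part of cell makeup in the values of the members was not tested.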

How the data were processed

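Polyadenylated heart RNA, pooled from 5 mice a genotype, was read from directional single-end libraries on the HiSeq2500. The authors aligned the reads to mm10 using TopHat (v2.0.8b). The deposited FPKM were then made by the authors from UCSC known genes, by means of Cufflinks and cuffdiff (v2.1.1). The submitters' processing notes name further tools with no role given, among them STAR 2.4.0h and Bowtie2. The scaling of the libraries is not given in the sources used here.

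The deposited values (23424 rows a library) were used without change, and rows sharing a symbol were summed. A gene was kept if neither value was 0 and the higher reached 1 FPKM. The plain ratio of csMed1-/- to Med1fl/fl FPKM was taken with no pseudocount and counted beyond 2-fold, the size the study states. The study also set an FDR cutoff in cuffdiff, which was not applied here, so its gene counts and these are not alike. With 1 library a genotype, no test, SD or p-value was computed. Absolute depth is unknown. Among 2461 rows of low FPKM, the commonest ratio of csMed1-/- to control below 1 was 0.72. It was found in 39 rows, against a median of 5 rows in windows of the same width. Taken as the step worth 1 read, this ratio would make the csMed1-/- library 1.39 times as deep if scaling was to mapped fragments alone. Low values rest on the fewest reads.

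Members were chosen by symbol alone, while their classes and the gene lists were drawn up with earlier results of these data known. Any member could be named. Both FPKM values were given for those past 2-fold, nearest to 2-fold, highest and lowest in a class or in a paralogue pair, and related genes were named if past 2-fold or extreme. Gene positions, transcript lengths and GC content came from GENCODE M21 (GRCm38), in which 49 members matched, and promoters from RefSeq (GRCm38.p6), in which 42 matched. In the annotation 18 members overlap another coding gene, and 0 of the 6 past 2-fold do. Values were computed in Python 3.11.15 (pandas 2.3.3, numpy 2.4.6, scipy 1.17.1; figures with matplotlib 3.10.9), and the code was tested on simulated data. Alternatives were pseudocounts, filters, scalings, thresholds, the choice of row and the membership.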

Additional observations from a re-analysis of the deposited data

How the results depend on the processing

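The 2 members more than 2-fold lower became 1 with 1 FPKM required in both libraries (38 members kept), with 5 FPKM in at least one (28 kept) and without the Pol I, SAGA and FET members (35 kept). In that order, this was 2.63%, 3.57% and 2.86% of the members, against 14.7%, 16.7% and 18.0% of all genes kept. At a 1.5-fold threshold 5 members were lower and 7 higher, where 29.7% and 23.7% of all genes were, and at 4-fold 1 was lower and 1 higher, against 5.14% and 4.32%. The median log2 ratio of polymerase II subunits was 0.064 when centred within bins of GC content, an alternative chosen after seeing the data, and stayed between 0.25 and 0.40 under the other alternatives. That of the TFIIA to TFIIH genes (0.06) ranged from 0.03, scaled without the 100 highest genes, to 0.35, centred by GC content. No direction was reversed for a member past 2-fold. The log2 ratio of Polr2a ranged from 2.99 to 3.19, Polr2l from 1.13 to 1.39, Gtf2b from 0.92 to 1.38, Taf13 from 1.02 to 1.75, Polr2m from -1.48 to -1.11 and Taf1a from -3.08 to -1.23. Gtf2b fell below 2-fold with a pseudocount of 1 and with scaling without the 100 highest genes (0.99), while Taf1c (1.01, scaled to summed FPKM) and Taf10 (barely, centred by GC content) passed it. Scaling to summed FPKM moved the median of all genes from -0.07 to 0.05 and put 26 in place of 23 members above 0, since Gtf2a2, Taf3 and Gtf2h4 changed sign. No paired analysis was possible because each genotype has 1 library, and for the same reason no library could be left out. A single pool a genotype leaves the spread between mice unmeasured.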

Other observations

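Genes close to the rule by name were looked at after the values were seen. Gtf2i, which encodes TFII-I, a signal-responsive factor that is not part of the basal machinery despite its name, had 77.9 FPKM in Med1fl/fl and 18.3 in csMed1-/-, a log2 ratio of -2.09. Its relatives Gtf2ird1 (7.56 and 7.49 FPKM) and Gtf2ird2 (3.90 and 2.65 FPKM) lay within 2-fold. Taf6l, the SAGA counterpart of Taf6, is listed only on a row joined with its neighbour Tmem179b, which had 35.4 and 63.4 FPKM (log2 ratio 0.84), so its own level cannot be told apart. Polrmt, the polymerase of mitochondrial DNA, had 22.2 and 15.5 FPKM (log2 ratio -0.52).

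Among the 40 members kept, shorter transcripts tended to stand at higher levels. Across genes, transcript length and log2 FPKM had a Spearman rho of -0.35 in control (Pearson r -0.24) and -0.29 in csMed1-/- (r -0.17), as a description of members that share both libraries. Length and the log2 ratio between the genotypes had a rho of 0.00319 over the same members.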
